A study of Mus musculus with 24 samples.

Results

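The miR-30 family was followed through miRNA-Seq of the right brain hemisphere of 8 CD1 mouse pups, by 7 mature miRNAs taken by name from the 1531 mouse entries of the count tables. These were mmu-miR-30a-5p, mmu-miR-30b-5p, mmu-miR-30c-5p, mmu-miR-30d-5p, and mmu-miR-30e-5p, and the 3p arms mmu-miR-30a-3p and mmu-miR-30e-3p, named below without the prefix for mouse except where their levels are first given. Neonatal hypoxic-ischemic brain injury (HIBI) was induced on postnatal day 9 in 4 of the pups (1, 4, 5, and 7), and the other 4 (2, 3, 6, and 8) had sham surgery. Allocation was random and included males and females. In HIBI pups the right common carotid artery was cauterized and, after 2 h with the dam, they breathed 8% oxygen for 30 min. Isoflurane, bupivacaine, an opened neck, and a 30 min absence from the dam were common to both groups, while the sham artery was not cauterized and the sham air was normal. Tissue was taken 30 min later from the cerebellum, striatum/thalamus, and cortex of each pup, which gave 24 libraries in 6 groups of 4. No group had hypoxia alone or ligation alone, so the parts of HIBI cannot be told apart.

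A miRNA is cut as a pair of arms, 5p and 3p, from a hairpin in its precursor RNA, and one arm is usually kept in the Argonaute protein to guide it to messenger RNAs while the other is lost. The bases at positions 2 to 8, the seed, do most of the target pairing, so miRNAs with 1 seed are grouped as a family. The miR-30 5p arms are such a family and are widely expressed in brain, heart, and kidney. The miR-30a and miR-30e hairpins are known to leave both arms in many tissues.

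The mature sequences show why the members are split into a 5p set and a 3p set. RefSeq (GRCm38.p6) held the sequence of 5 of the 7 members. They are given 5′ to 3′ with the seed in capitals, beside miR-384-5p, the 1 other entry with this 5p seed among the 1291 mouse entries that had a sequence.
miR-30a-5p: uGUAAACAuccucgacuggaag
miR-30c-5p: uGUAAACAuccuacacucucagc
miR-30e-5p: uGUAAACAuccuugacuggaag
miR-384-5p: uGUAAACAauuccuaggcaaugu
miR-30a-3p: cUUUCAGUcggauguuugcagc
miR-30e-3p: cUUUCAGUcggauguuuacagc
From miR-30a-5p to miR-30e-5p there was a single substitution, C13U, counted from 1 at the 5′ end. From miR-30a-3p to miR-30e-3p there was also a single substitution, G18A. MiR-30c-5p differed from miR-30a-5p at 5 of the 22 bases compared, all beyond the seed, and miR-384-5p at 10. The rule for reads that match more than 1 entry was not given in the sources used here, so the split of reads between miR-30a and miR-30e is uncertain.

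The members come from 6 hairpins in 3 clusters of the mouse genome (GRCm38). Mir30a at chr1:23272269-23272339 overlapped no annotated gene, and Mir30c-2 lay 19361 bases away at chr1:23291701-23291784 in an exon of the noncoding RNA Gm27028, both on the plus strand. Mir30b at chr15:68337415-68337510 and Mir30d at chr15:68341208-68341289 were 3697 bases apart on the minus strand, in exons of Gm26621 and of Gm37296 and Gm20732. Mir30c-1 at chr4:120769534-120769622 and Mir30e at chr4:120772606-120772697 were 2983 bases apart, in introns of Nfyc, which encodes a subunit of the transcription factor NF-Y, on the same minus strand. MiR-30c-5p is the same sequence from Mir30c-1 and Mir30c-2, so its count sums both hairpins.

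The libraries held 1254185 to 3406624 mouse miRNA counts. The 7 members together took 0.870% to 2.15% of them. Levels are given as counts per 1000000 (CPM) after 1 scaling of all 24 libraries by the trimmed mean of M-values (TMM). Each count is a read of 1 mature miRNA and needs no length correction, but the ligation steps of small RNA libraries can favor one sequence over another. The cerebellum held 4792 to 8318 CPM of 2 oligodendrocyte miRNAs and 345 to 651 CPM of 3 skeletal muscle miRNAs, against 788 to 4180 and 28.4 to 141 CPM in the other two regions, and none of these markers was at 0 in any library. The 3 neuron and brain miRNAs summed to 78900 to 152386 CPM in the striatum/thalamus, where the members were also lowest, 102774 to 190881 CPM in the cerebellum, and 179824 to 223731 CPM in the cortex. The 2 endothelial miRNAs were likewise lowest there, with 974 to 3126 CPM, against 2112 to 4830 CPM in the cerebellum and 2158 to 3738 CPM in the cortex. The part of such differences in the results on regions was not tested, and in bulk tissue fewer cells of a type and less miRNA per cell cannot be told apart.

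MiR-30d-5p and miR-30c-5p made up nearly all of the 5p set. In the 24 libraries mmu-miR-30d-5p was 51.7% to 68.7% of the 5p counts and mmu-miR-30c-5p was 22.3% to 36.9%. Then followed mmu-miR-30b-5p with 2.66% to 9.83%, mmu-miR-30a-5p with 3.27% to 6.17%, and mmu-miR-30e-5p with 0.182% to 0.597%. The order miR-30d-5p over miR-30c-5p thus held in every library, with ratios of 1.48 to 3.06. MiR-30b-5p and miR-30a-5p were neighbors whose ranges overlapped. Among all mouse entries ranked by mean share of counts, miR-30d-5p was 24th with 0.828% ± 0.261 (SD, n = 24) and miR-30c-5p 40th with 0.374% ± 0.125. MiR-30e-5p was the 270th with 0.00488% ± 0.00246.

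**Figure D1:**
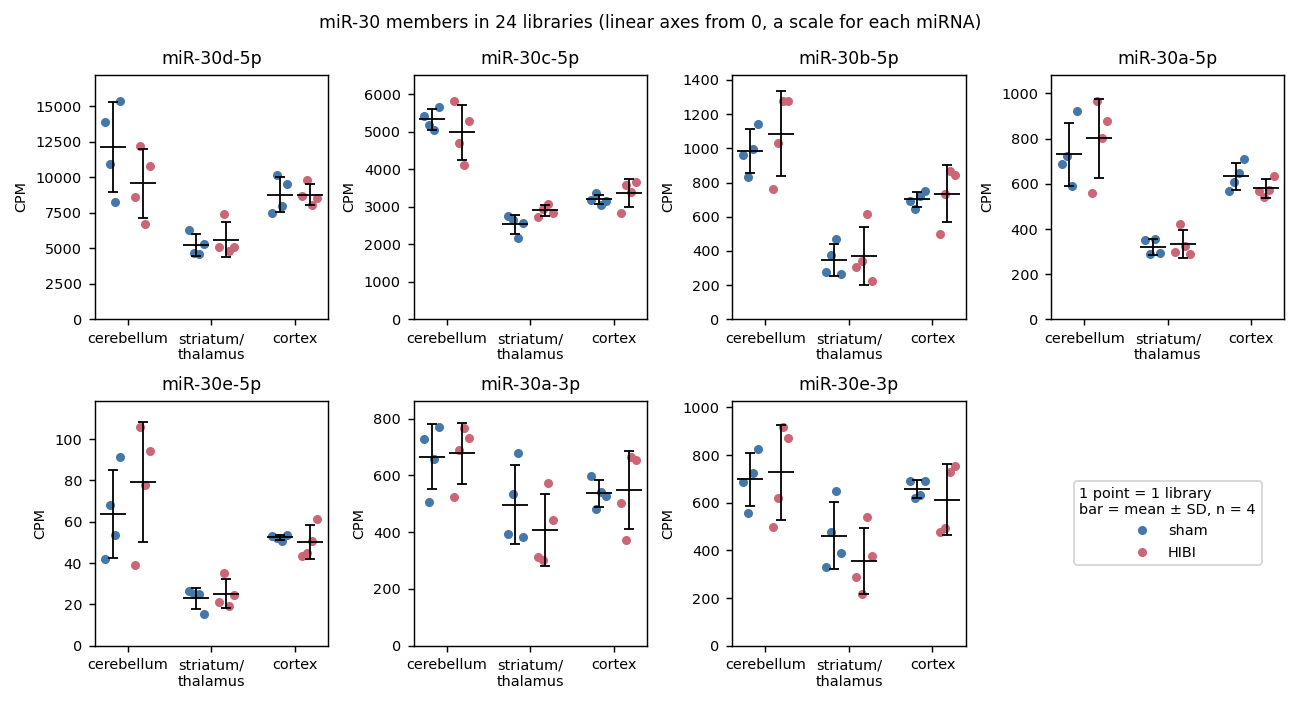
CPM (linear y axis from 0, a scale for each miRNA) of the 7 miR-30 members by region, sham in blue and HIBI in red; each point is 1 library and the black bars are the mean ± SD of 4 libraries. The 5p members were lowest in the striatum/thalamus, where miR-30d-5p averaged 5416 CPM against 10842 in the cerebellum, and the sham and HIBI points overlapped for every member in every region.

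All 7 members were lower in the striatum/thalamus than in the cerebellum, by 1.49-fold (miR-30a-3p) to 2.97-fold (miR-30e-5p). The test was edgeR's quasi-likelihood test in 1 model of the 24 libraries, called at a Benjamini-Hochberg (BH) adjusted p-value under 0.05, and it called 33.8% of the 435 miRNAs tested as lower and 69.9% in either direction. The median of the members was -0.99 on the log2 scale, against 0.0077 for all miRNAs tested. The summed 5p members were 12984 to 23193 CPM in the 8 cerebellum libraries and 7654 to 11193 CPM in the 8 of the striatum/thalamus, which do not overlap.

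MiR-30d-5p, the most abundant member, ranged from 6706 CPM through a median of 10865 to 15379 in the cerebellum. Its striatum/thalamus libraries ranged from 4629 through 5103 to 7445 CPM. The ranges overlapped, but each of the 8 pups had less in its striatum/thalamus (log2 fold change -0.99, SE 0.146, adjusted p = 1.889e-06). MiR-30c-5p ranged from 4123 through 5229 to 5820 CPM in the cerebellum and from 2178 through 2735 to 3080 CPM in the striatum/thalamus. Its regions were apart (-0.93, SE 0.0968, adjusted p = 1.004e-08).

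The less abundant 5p members differed most. MiR-30b-5p, which shares a cluster with miR-30d, ranged from 762 through 1012 to 1278 CPM in the cerebellum and from 225 through 323 to 614 CPM in the striatum/thalamus (-1.53, SE 0.182, adjusted p = 8.465e-08). MiR-30a-5p ranged from 561 through 762 to 968 CPM and from 290 through 312 to 424 CPM (-1.22, SE 0.128, adjusted p = 1.083e-08). MiR-30e-5p ranged from 39.2 through 72.9 to 106 CPM and from 15.3 through 24.7 to 35.2 CPM (-1.57, SE 0.210, adjusted p = 4.697e-07). The regions did not overlap for miR-30a-5p, miR-30b-5p, miR-30c-5p, and miR-30e-5p, 4 of 7 members, where 29.9% of all miRNAs tested did not overlap. MiR-30e-5p rests on few reads, 30 to 60 counts in a library of the striatum/thalamus, which alone give a counting error of up to 15.4%.

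The 3p arms were lower by less. MiR-30a-3p ranged from 508 through 709 to 770 CPM in the cerebellum and from 301 through 418 to 678 CPM in the striatum/thalamus (-0.58, SE 0.163, adjusted p = 0.003086), lower in 6 of 8 pups. MiR-30e-3p was lower in 8 of 8 pups (-0.81, SE 0.182, adjusted p = 3.608e-04). Both arms' regions overlapped. In sham libraries alone miR-30a-3p was not called (-0.36, adjusted p = 0.1001), while the other 6 members were, beside 65.2% of all miRNAs.

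The cortex lay above the striatum/thalamus for all 7 members, and 6 of 7 were called. Of all miRNAs tested, 25.1% were called as higher and 53.8% in either direction. The median of the members was 0.70 on the log2 scale against 0.0177 for all tested. MiR-30e-5p was 2.14-fold higher (1.10, SE 0.209, adjusted p = 1.343e-04), with 43.2 to 61.3 CPM in the cortex. MiR-30b-5p was 2.00-fold higher (1.00, SE 0.180, adjusted p = 7.636e-05) with 501 to 866 CPM, and miR-30a-5p 1.84-fold higher (0.88, SE 0.128, adjusted p = 5.415e-06) with 540 to 708 CPM. MiR-30d-5p was 1.62-fold higher (0.70, SE 0.145, adjusted p = 3.371e-04) with 7516 to 10161 CPM in the cortex. These 4 were higher in all 8 pups. The ranges of miR-30a-5p, miR-30d-5p, and miR-30e-5p did not overlap, nor did those of 16.8% of all miRNAs tested.

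MiR-30c-5p differed least among the 5p members between cortex and striatum/thalamus. It ranged from 2839 through 3277 to 3668 CPM in the cortex and was 1.21-fold higher there (0.28, SE 0.0961, adjusted p = 0.01874), in 8 of 8 pups. This call was lost with scaling by library size alone (0.23, adjusted p = 0.08737) and on leaving out pup 3, 4, 6, 7, or 8. MiR-30e-3p was 1.56-fold higher in the cortex (0.65, SE 0.182, adjusted p = 0.004787), in 7 of 8 pups. It was not called in sham libraries alone (0.42, adjusted p = 0.08865) or in HIBI libraries alone (0.80, adjusted p = 0.06336), nor was miR-30c-5p (0.23, adjusted p = 0.2293, and 0.25, adjusted p = 0.3052). That left 4 of 7 members called in each, beside 38.5% of all miRNAs in sham and 28.7% in HIBI libraries. MiR-30a-3p was not called (0.27, 95% confidence interval -0.068 to 0.61, adjusted p = 0.1702), with 372 to 663 CPM in the cortex.

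Between cortex and cerebellum 4 of 7 members were called, all lower in the cortex, where 64.8% of all miRNAs tested were called in either direction and 148 of 435 were lower. The median of the members was -0.34 on the log2 scale against -0.16 for all miRNAs tested. MiR-30c-5p was 1.57-fold lower (-0.65, SE 0.0964, adjusted p = 3.199e-06), and it was the 1 member whose regions did not overlap, as those of 25.5% of all miRNAs did not. MiR-30b-5p was 1.44-fold lower (-0.53, SE 0.178, adjusted p = 0.01331), in 8 of 8 pups. MiR-30a-5p (-0.34, SE 0.126, adjusted p = 0.02248) and miR-30e-5p (-0.47, SE 0.203, adjusted p = 0.04379) were lower in 6 of 8 pups. MiR-30d-5p (-0.29, adjusted p = 0.07756), miR-30a-3p (-0.31, adjusted p = 0.09754), and miR-30e-3p (-0.17, adjusted p = 0.4189) were not called.

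The cortex to cerebellum calls of miR-30a-5p and miR-30e-5p were the least stable. That of miR-30e-5p was lost on leaving out any of pups 3, 4, 5, 6, 7, and 8, and that of miR-30a-5p without pup 3 or pup 4. Without pup 3, 2 of 7 members and 59.1% of all miRNAs were called, and without pup 4, 2 of 7 and 60.7%. With the pup as a block, since the 3 regions came from the same pups, miR-30e-5p was not called (-0.43, adjusted p = 0.06333), and 3 of 7 members and 65.3% of all were. In sham libraries alone miR-30a-5p (-0.25, adjusted p = 0.21) and miR-30e-5p (-0.32, adjusted p = 0.3046) were not called. With HIBI libraries alone 1 member was called, and the share of all miRNAs called fell as well, to 30.9%. With no CPM minimum it was also 1 member, and 19.1% of a larger number of miRNAs. MiR-30c-5p was called in each of these fits. Calls were also gained. MiR-30d-5p was called in sham libraries alone (-0.50, adjusted p = 0.03015), with scaling by library size (-0.33, adjusted p = 0.02567), and without pup 5 or pup 6, and miR-30a-3p without pup 1 (-0.38, adjusted p = 0.04154).

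**Figure D2:**
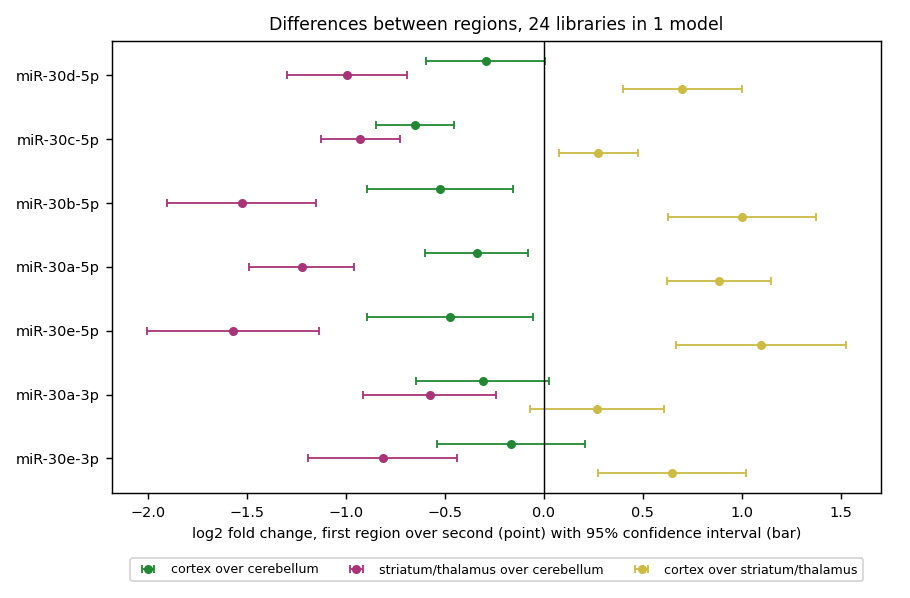
Log2 fold change (x axis) of each miR-30 member between regions, with 95% confidence intervals as bars, from 1 model of 24 libraries. The striatum/thalamus to cerebellum points lie between -1.57 and -0.58 with every interval below 0, and the cortex to cerebellum points lie nearer 0, between -0.65 and -0.17.

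HIBI did not move any miR-30 member past the study's criteria, a fold change above 1.5 with an unadjusted p-value under 0.05. In the cerebellum 0 of 7 members were called, where 7.83% of the 434 miRNAs tested were. It was 0 of 7 beside 2.75% of 436 for the striatum/thalamus and 0 of 7 beside 3.41% of 410 for the cortex. At an unadjusted p-value under 0.05 alone, edgeR's quasi-likelihood test also found 0 members, beside 10.1%, 3.21%, and 4.63% of all miRNAs tested in these regions. The criteria were met by 0 members with DESeq2, beside 10.4%, 4.36%, and 3.17% of all in the same order of regions. With edgeR's exact test it was 0 members beside 9.45%, 3.67%, and 4.15%. No member's HIBI and sham libraries were apart in any region, where those of 3.92% (cerebellum), 1.83% (striatum/thalamus), and 3.41% (cortex) of all miRNAs tested were.

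The members' median log2 fold change was 0.083 in the cerebellum, where that of all miRNAs tested was 0.11. It was 0.0084 in the striatum/thalamus beside -0.029, and 0.0033 in the cortex beside -0.019. In the cortex all 7 confidence intervals lay within a 1.5-fold change in either direction (0.585 on the log2 scale). In each of the other two regions 3 of 7 did, and the others reached beyond it, so a 1.5-fold change of those members was within the error. All 21 intervals held 0.

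In the cerebellum the sham pups had 13895, 10909, 8259, and 15379 CPM of miR-30d-5p. The HIBI pups had 8596, 12174, 6706, and 10820 CPM. The highest pair of values were sham, and the groups overlapped (-0.31, SE 0.235, 95% confidence interval -0.82 to 0.20, adjusted p = 0.5238). MiR-30e-5p had the widest interval there, with 42.1, 68.2, 53.3, and 91.4 CPM in sham pups and 39.2, 106, 77.6, and 94.2 CPM in HIBI pups (0.32, SE 0.337, -0.41 to 1.06, adjusted p = 0.6085). The lowest and the highest cerebellum libraries of this member were both from HIBI pups.

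The 3p arms had, in the striatum/thalamus, the lowest fold changes of the family. The sham pups had 331, 477, 650, and 391 CPM of miR-30e-3p. The HIBI pups had 288, 217, 541, and 378 CPM. HIBI pups 1 and 4 lay below all sham pups and pup 5 above 3 of them (-0.45, SE 0.317, 95% confidence interval -1.15 to 0.24, adjusted p = 0.9801). Without pup 5 this member passed the criteria (-0.74), in a fit that called 8.90% of all miRNAs tested in place of 2.75%, and it was the 1 member called in any HIBI fit that left out a pup. MiR-30a-3p had 392, 535, 678, and 384.1 CPM in sham and 312, 301, 572, and 445 CPM in HIBI pups (-0.37, SE 0.281, -0.99 to 0.25, adjusted p = 0.9801).

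MiR-30c-5p came nearest to separate groups in the striatum/thalamus. The sham pups had 2740, 2643, 2178, and 2561 CPM and the HIBI pups 2729, 2949, 3080, and 2838 CPM. The highest sham value lay just above the lowest HIBI value, and the fitted difference was small (0.11, SE 0.163, -0.25 to 0.47, adjusted p = 0.9801). That fit scaled the 8 libraries of the region by themselves. The CPM, with means of 2530 in sham and 2899 in HIBI pups, were scaled over all 24 libraries and lie farther apart. In the cortex the member with the lowest p-value was miR-30a-5p, with 569, 606, 646, and 708 CPM in sham and 570, 540, 572, and 636 CPM in HIBI pups (-0.13, SE 0.127, -0.41 to 0.15, adjusted p = 0.9534).

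**Figure D3:**
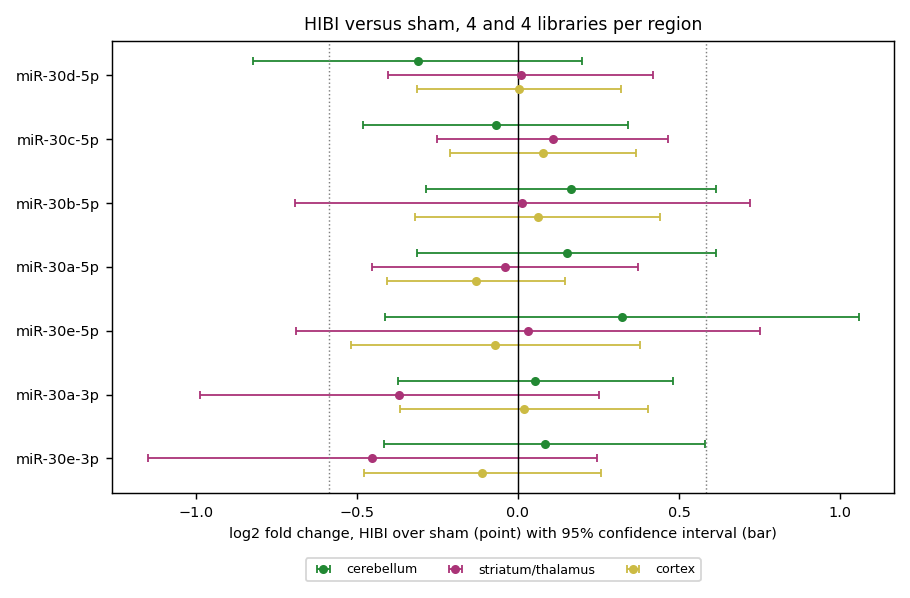
Log2 fold change (x axis) of each miR-30 member, HIBI over sham, in the 3 regions, with 95% confidence intervals as bars and dotted lines at a 1.5-fold change. Every interval holds 0; those of the cortex lie inside the dotted lines, and those of miR-30e-3p in the striatum/thalamus and miR-30e-5p in the cerebellum reach farthest beyond them.

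The cerebellum is supplied mainly by other arteries than the ligated carotid, and the forebrain regions were set against it here. The mean HIBI effect of both forebrain regions, less that of the cerebellum, was called for 0 of 7 members and for 0% of the 435 miRNAs tested. At an unadjusted p-value under 0.05 it was 0 of 7 members and 16.1% of all tested. The largest difference was that of miR-30d-5p (0.39, SE 0.251, 95% confidence interval -0.13 to 0.91, adjusted p = 0.4324). MiR-30e-3p had -0.30 (SE 0.313, -0.94 to 0.35, adjusted p = 0.6176).

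The arms of miR-30a were about equal, and those of miR-30e were not. The ratio of miR-30a-5p to miR-30a-3p counts within a library ranged from 0.524 through a median of 1.01 to 1.45, and was above 1 in 12 of 24 libraries. The ratio of miR-30e-5p to miR-30e-3p ranged from 0.0359 through 0.0791 to 0.171 and was below 1 in all 24. In the other hairpins the 5p arm led in counts summed over the 24 libraries. It had 64.0 times the 3p counts for miR-30b, 5396 times for miR-30d, and 15.6 times the summed 3p arms for miR-30c. The miR-30d value is imprecise, as miR-30d-3p had 84 counts in all, with 0 to 9 in a library. The 3p arms of miR-30a and miR-30e were at like levels, with a ratio of miR-30e-3p to miR-30a-3p of 0.723 to 1.33, whereas the 5p arm of miR-30a had 9.14 to 19.1 times the counts of that of miR-30e. Between these hairpins the counts thus differed far more in the 5p arm than in the 3p arm. Each pair of arms differs by 1 base and the rule for reads matching both is not known, so the split of reads is uncertain. Its part in these ratios was not tested.

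Every pup had a lower 5p to 3p ratio of miR-30a in its striatum/thalamus than in its cortex. In the former the sham pups had ratios of 0.894, 0.541, 0.524, and 0.763, and HIBI pups 0.961, 1.41, 0.567, and 0.652. In the cortex sham pups had 0.952, 1.26, 1.19, and 1.35, and HIBI pups 1.13, 1.45, 0.862, and 0.973. The mean difference within a pup was 0.60 on the log2 scale (SD 0.460, n = 8 pups, higher in the cortex in 8 of 8, two-sided exact permutation p = 0.00781, which is the smallest p that 8 pups can give). This p passed the threshold for a ratio, an unadjusted p under 0.05. After adjustment over the 12 ratio comparisons made it was 0.0938, which is above 0.05.

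Against the cerebellum, where the ratio of miR-30a ranged from 0.899 to 1.42, the striatum/thalamus was lower by a mean of 0.60 on the log2 scale (SD 0.487, n = 8 pups, lower in 7 of 8, exact permutation p = 0.0156, adjusted 0.0938). HIBI pup 4 was the exception, with ratios of 1.40 (cerebellum), 1.41 (striatum/thalamus), and 1.45 (cortex). The cortex and cerebellum differed by a mean of -0.0051 (SD 0.241, exact permutation p = 0.953, adjusted 0.953, n = 8 pups).

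The ratio of miR-30e was also lowest on average in the striatum/thalamus. Its values in the striatum/thalamus were 0.0798, 0.0525, 0.0382, and 0.0392 in sham pups and 0.0739, 0.162, 0.0359, and 0.0647 in HIBI pups. It lay below the cerebellum by a mean of 0.68 on the log2 scale (a difference of -0.68, SD 0.672, n = 8 pups, lower in 7 of 8, exact permutation p = 0.0391, adjusted 0.156). Leaving out pup 3, 5, 6, 7, or 8 took this p to 0.0781. The cortex held the narrowest range of this ratio, 0.0697 to 0.0907. The cortex was above the striatum/thalamus by 0.43 (SD 0.647, n = 8 pups, higher in 6 of 8, exact permutation p = 0.0938, adjusted 0.281).

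HIBI and sham did not separate by arm ratio. The 6 comparisons, 2 hairpins in 3 regions, had exact permutation p-values of 0.371 to 0.629 and an adjusted value of 0.686 each, and 4 against 4 pups cannot give a p below 0.0286. The largest difference was that of miR-30e in the striatum/thalamus, with a mean log2 ratio of -3.78 ± 0.894 in HIBI and -4.32 ± 0.494 in sham pups (SD, n = 4 each, exact permutation p = 0.371). The difference of 0.54 was smaller than the SD among the HIBI pups.

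**Figure D4:**
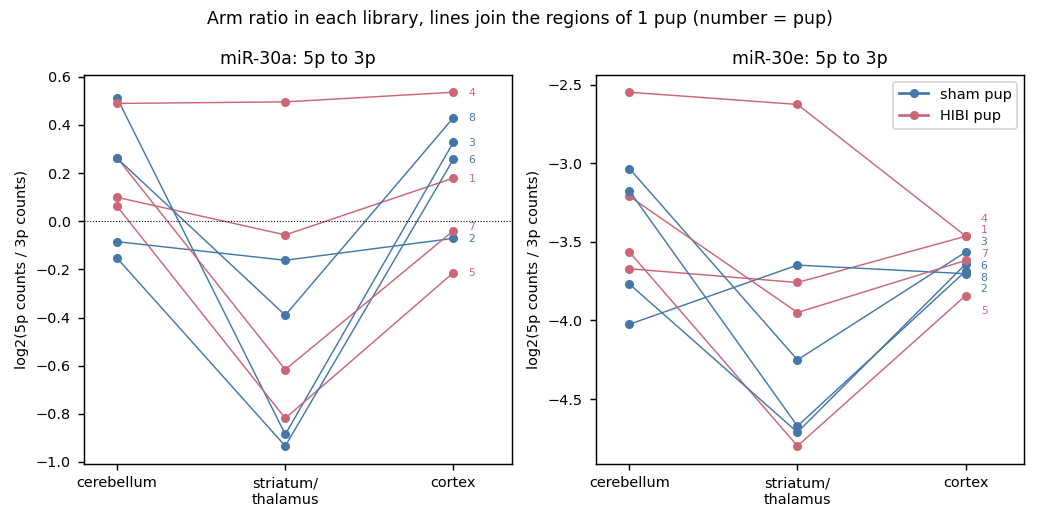
Log2 ratio of 5p to 3p counts (y axis) of miR-30a and miR-30e in each of 24 libraries, with a line for each pup across the 3 regions, sham in blue and HIBI in red. For miR-30a 7 of 8 pups dip in the striatum/thalamus, to as low as a ratio of 0.524, while HIBI pup 4 stays at 1.40 to 1.45; miR-30e lies below 1 throughout.

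Within groups the members did not vary as 1 set. Each library's log2(CPM + 1) was taken as a deviation from the mean of its group, and the Pearson correlation over the 24 libraries is given as a description, since the points share pups and scaling. MiR-30a-3p and miR-30e-3p deviated together with r = 0.907, and miR-30a-5p and miR-30e-5p with r = 0.828, each pair differing by 1 base. The 5p and 3p arms of 1 hairpin hardly did, with r = 0.198 for miR-30a and 0.147 for miR-30e. Over all pairs of the 435 miRNAs the median r was 0.0087, with a 5th to 95th percentile of -0.554 to 0.602.

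MiR-30b-5p deviated with the 3p arms, with r = 0.749 to miR-30e-3p and 0.661 to miR-30a-3p, but not with miR-30d-5p of its own cluster, r = -0.136. MiR-30d-5p deviated most with miR-30a-5p, r = 0.610. MiR-384-5p, of the same seed but another hairpin, had r = 0.837 to miR-30e-3p and 0.787 to miR-30b-5p. MiR-9-5p, an abundant brain miRNA, was picked as the 1 of 424 other miRNAs whose levels correlated most with those of miR-30e-3p. Its r was higher than that of miR-384-5p, with 0.893 to miR-30e-3p, 0.854 to miR-30a-3p, and 0.850 to miR-30b-5p. To miR-384-5p itself it had r = 0.870, so high correlations with these members were not limited to the family. The 3p arms also followed the library totals, with r = 0.649 for miR-30a-3p and 0.622 for miR-30e-3p. So did miR-9-5p (0.622), miR-384-5p (0.504), and miR-30b-5p (0.455), and less so miR-30e-5p (0.386) and miR-30a-5p (0.384). By contrast, miR-30d-5p had 0.0793 and miR-30c-5p -0.0712. The part of depth in these correlations was not tested.

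**Figure D5:**
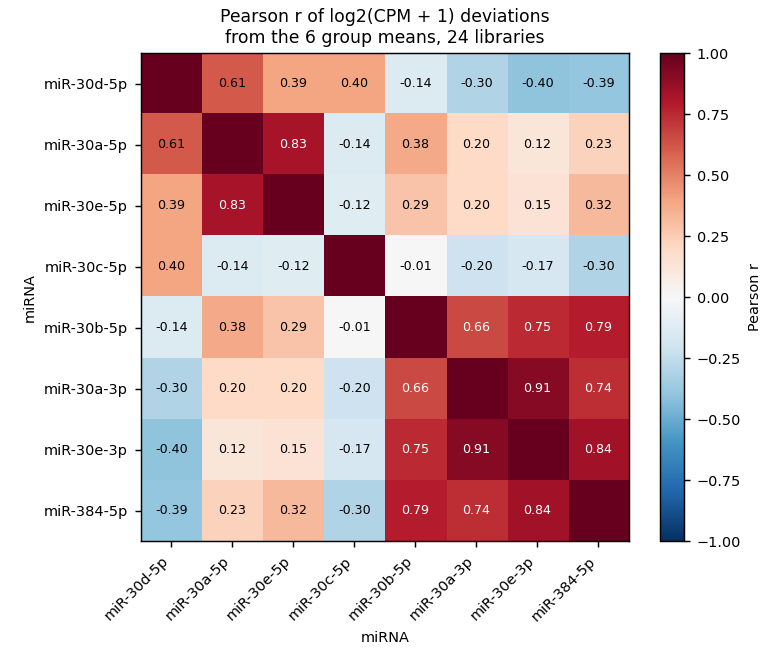
Pearson r (color and number) between the within-group deviations of the 7 members and miR-384-5p over 24 libraries. The block of miR-30b-5p, miR-30a-3p, miR-30e-3p, and miR-384-5p holds values of 0.66 to 0.91, and that of miR-30d-5p, miR-30a-5p, and miR-30e-5p holds 0.39 to 0.83.

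The spread within a group was wider than counting error for nearly every member. The coefficient of variation of miR-30d-5p was 8.58% to 26.2% across the 6 groups, against a counting error of 0.637% to 1.02%. That of miR-30b-5p reached 45.5% in the HIBI striatum/thalamus, where pup 5 had 614 CPM and the other pups had 306, 339, and 225. MiR-30c-5p was the steadiest, 4.09% to 14.8%. MiR-30e-5p in the sham cortex was an exception, with a coefficient of variation of 2.34%, below its counting error of 8.42%.

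The other entries of the miR-30 hairpins were read beside the members. The 3p arms of the miR-30c hairpins tell Mir30c-1 from Mir30c-2, which the 5p arm cannot, and are shown for that, with the seed in capitals.
miR-30c-1-3p: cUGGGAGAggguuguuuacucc
miR-30c-2-3p: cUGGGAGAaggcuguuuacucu
They differ at 3 bases, and miR-30c-2-3p had 5.58 to 13.4 times the counts of miR-30c-1-3p. Both were lower in the cortex than in the cerebellum (-0.73, SE 0.124, adjusted p = 2.190e-05 for miR-30c-2-3p and -0.82, SE 0.224, adjusted p = 0.003019 for miR-30c-1-3p), as was miR-30c-5p. Both were also lower in the striatum/thalamus than in the cerebellum (-0.82 and -0.75, adjusted p = 3.102e-06 and 0.004795). Neither was called between cortex and striatum/thalamus (0.087 and -0.064, adjusted p = 0.5841 and 0.8265).

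MiR-30b-3p was near the limit of 10 CPM and was lower in the striatum/thalamus than in the cerebellum (-0.88, SE 0.300, adjusted p = 0.01176). MiR-30d-3p and miR-30f, which lies opposite the Mir30e hairpin, were below it in every region and were not tested. None of these entries that was tested was called for HIBI. MiR-30c-2-3p had log2 fold changes of -0.24 (cerebellum, adjusted p = 0.5601), -0.28 (striatum/thalamus, 0.9801), and -0.26 (cortex, 0.9145). In the cortex it had 183, 183, 179, and 215 CPM in sham and 160, 115, 171, and 193 CPM in HIBI pups, which overlapped.

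MiR-384-5p, which carries the miR-30 seed and is known in neurons as a miRNA that responds to activity, was higher in the striatum/thalamus than in the cortex. In that comparison all 7 members were lower in the striatum/thalamus, and 6 of the 7 were called. It had 759 to 2076 CPM in the striatum/thalamus and 665 to 1050 CPM in the cortex, and was 1.57-fold lower in the cortex (-0.65, SE 0.222, adjusted p = 0.01698) in 8 of 8 pups. In the cerebellum it had 573 to 1620 CPM, and neither the striatum/thalamus (0.43, SE 0.221, adjusted p = 0.08761) nor the cortex (-0.22, SE 0.221, adjusted p = 0.3857) was called against it. It was not called for HIBI, with -0.37 (SE 0.346, adjusted p = 0.9801) in the striatum/thalamus and 0.43 (SE 0.313, adjusted p = 0.5079) in the cerebellum.

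Of the 424 other miRNAs above 10 CPM, those whose log2 levels followed the summed 5p members most closely over the 24 libraries were miR-181a-1-3p (r = 0.964), miR-181a-5p (r = 0.958), and miR-124-5p (r = 0.953). MiR-181a-5p was also the closest to miR-30d-5p (r = 0.950), and miR-181a-1-3p to miR-30a-5p (r = 0.936). The closest to miR-30b-5p was miR-16-5p (r = 0.948), to miR-30c-5p miR-195a-3p (r = 0.941), and to miR-30e-5p miR-186-5p (r = 0.917). The 3p arms had other neighbors, let-7g-5p for miR-30a-3p (r = 0.892) and miR-9-5p for miR-30e-3p (r = 0.949). These correlations hold the differences between regions and share pups, and are descriptions.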

How the data were processed

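MiRNA-Seq was performed on 24 libraries (8 pups, 3 regions), each prepared from 200 ng RNA with the NEXTFLEX Small RNA Kit and sequenced on a NextSeq 550. The deposited tables, 1 a region, give raw counts: reads that the authors matched with Bowtie2 to miRBase entries of mature mouse miRNAs, per entry and library. Versions, the miRBase release and the rule for reads matching several entries are not given in the sources used here. The tables also hold log2 fold changes, mean log2 CPM, p-values and false discovery rates that the authors computed with edgeR from these counts, which were not used. Of 1551 entries, 20 castor bean entries (84 counts, 0.000156% of all) were left out. Totals ranged from 1254185 to 3406624 counts, and no 2 libraries of a group agreed within sampling noise.

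Counts were scaled by TMM and tested with edgeR 4.0.16 (quasi-likelihood, R 4.3.3) among miRNAs averaging above 10 CPM. HIBI was compared with sham in the 8 libraries of each region, called at a fold change above 1.5 and unadjusted p under 0.05. These fits scaled the 8 libraries by themselves, so their fold changes can differ from the printed CPM, which were scaled over all 24. Regions and the interaction were compared in a model of 24 libraries, called at a BH adjusted p under 0.05. The 5p to 3p log2 count ratios were tested by two-sided exact permutation (70 arrangements of 4 against 4 pups, or 256 exchanges within 8 pups, SciPy 1.17.1). The threshold for a ratio was an unadjusted p under 0.05, and BH adjusted values over the 12 ratio comparisons are given beside it. All tests were tested on simulated data. Because the regions came from the same pups, the fit with the pup as a block was an alternative: deviations of a pup's regions from their group means over 435 miRNAs had a median r of 0.270 for cortex with cerebellum, 0.160 for striatum/thalamus with cerebellum, and 0.190 for cortex with striatum/thalamus. Other alternatives were DESeq2 1.42.0, other scalings, no CPM minimum, and each pup left out.

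The 7 members, the related entries and the marker lists were chosen with earlier results of these data known. Named were all members, the other miR-30 entries, the entry sharing their seed, and the miRNAs whose levels correlated most with those of the members. Of 3 oligodendrocyte markers, 2 were found by name. Summed CPM ranged from 10.6 to 52.2 for 3 myeloid markers, 464 to 1425 for 4 erythrocyte markers, and 1504 to 9660 for 5 choroid plexus and ciliated cell markers. The labels name no batch. Sequences and hairpins are from RefSeq and the GRCm38 annotation, matched by name, and no coordinates come from the count tables. MiR-30b and miR-30d members have no printed sequence.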

Additional observations from a re-analysis of the deposited data

Results flagged for a closer look

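In the striatum/thalamus of HIBI pups, miR-30d-5p was highest in pup 4, with 7445 CPM, while the other 3 pups had 4805 to 5121 CPM. That gap was above Dixon's 95% critical value for 4 samples. The same pup had the highest miR-30a-5p of that group, 424 CPM, and the lowest miR-30e-3p, 217 CPM. In the striatum/thalamus of sham pups, miR-30e-5p was lowest in pup 8, with 15.3 CPM from 31 counts, while the others had 24.8 to 26.4 CPM. These were 2 of 54 groups examined, and chance alone gives about 1 in 20.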

How the results depend on the processing

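The count of members called between cortex and cerebellum was 4 (64.8% of all miRNAs); it was 1 with no CPM minimum (19.1%), 1 with HIBI libraries alone (30.9%), and 2 to 5 with a pup left out (57.4% to 65.1%). The count for HIBI in the striatum/thalamus was 0 to 1 with a pup left out, the 1 being miR-30e-3p without pup 5 (8.90% of all miRNAs against 2.75%). With the pup as a replicate block 7 members were called between striatum/thalamus and cerebellum (73.1% of all miRNAs) and 6 between cortex and striatum/thalamus (57.2%). Between cortex and cerebellum 3 were called (65.3%), and miR-30e-5p in that comparison was the only call lost. Of 357 log2 fold changes under alternatives that kept all pups of a group, 329 kept both sign and call. A call was lost by 15 and gained by 2, all between regions. The other 11 turned sign, all from HIBI fits in which none was called. In the cerebellum these were miR-30a-3p (-0.075) and miR-30e-3p (-0.0404) with upper quartile scaling and miR-30c-5p (0.0982) with scaling by library size. In the striatum/thalamus they were miR-30a-5p (0.00666 with DESeq2 size factors, 0.0103 by library size, 0.00655 in DESeq2, 0.0553 in the 24-library model) and, with no CPM minimum, miR-30b-5p (-0.00537) and miR-30d-5p (-0.00187). In the cortex it was miR-30d-5p (-0.0164 with upper quartile scaling, -0.000507 in the 24-library model). Scaling moved the median of all miRNAs in the cerebellum HIBI comparison from 0.11 to 0.27 by library size and to -0.0188 by upper quartile; the cause was not tested. With a pup left out, 13 calls were lost and 4 gained, and sign turned in 29 HIBI or interaction log2 fold changes, none called. Their ranges were, for miR-30a-3p, -0.0677 to 0.142 (cerebellum) and -0.0805 to 0.144 (cortex); for miR-30c-5p -0.18 to 0.0177 (cerebellum); for miR-30e-3p -0.0433 to 0.212 (cerebellum) and -0.208 to 0.00451 (cortex); for miR-30a-5p -0.0784 to 0.113 (striatum/thalamus); for miR-30b-5p -0.367 to 0.272 (striatum/thalamus), -0.0172 to 0.22 (cortex), and -0.19 to 0.0739 (interaction); for miR-30d-5p -0.0601 to 0.144 (striatum/thalamus) and -0.0869 to 0.102 (cortex); for miR-30e-5p -0.066 to 0.182 (striatum/thalamus) and -0.165 to 0.00753 (cortex). Arm ratio differences ranged, for miR-30a, from -0.00097 to 0.221 (HIBI, cerebellum) and -0.0645 to 0.0373 (cortex to cerebellum), and for miR-30e from -0.828 to -0.56 (striatum/thalamus to cerebellum) and 0.337 to 0.61 (cortex to striatum/thalamus, unadjusted exact permutation p = 0.0312 without pup 4). Without the pairing by pup (no replicate block) the 6 regional ratio comparisons kept their side of an unadjusted p of 0.05. Depth limited miR-30e-5p most, with 30 to 60 counts in a striatum/thalamus library.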
